A study of Sus scrofa with 48 samples.

Results

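Expression in fed liver was compared between gilts homozygous for the N298 form of MC4R and gilts homozygous for D298, the wildtype form. The 12 arrays were those titled as liver of freely fed animals, 6 per genotype, out of 48 arrays of liver and fat in the series. All animals were Yorkshire gilts 6 months old, from 1 line bred for low residual feed intake, meaning that its pigs eat less than predicted from their size and gain. The fed groups had feed ad libitum during the 3 days in which the other gilts were fasted, and each array held total RNA of 1 liver, hybridised to an Affymetrix porcine array. The fasted liver groups (6 N298 and 6 D298 gilts) shared the statistical model, and the fed fat arrays came from the gilts of the same labels.

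MC4R, the melanocortin 4 receptor, is a G protein-coupled receptor of hypothalamic neurons that lowers feed intake and raises energy use when it binds melanocortin peptides. The missense variant studied here changes a conserved aspartate to asparagine and is known in pigs for its association with feed intake, growth and fatness. The liver is downstream of the receptor: it makes fatty acids, cholesterol and glucose, oxidises fat, and sets the level of circulating growth factors according to feeding and hormones. The comparison asks whether these programmes differ with genotype when feed is available, and how large a difference the 12 livers leave possible. The variant is carried in every cell of the gilts, which come from 1 selection line, so genotype groups may also differ at loci inherited along with MC4R.

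The median signal was 134 to 149 in N298 and 122 to 140.2 in D298 fed livers, and within a group the correlation of log2 signals between arrays, as the median for each array, was 0.915 to 0.926 in N298 and 0.922 to 0.927 in D298. The ratio of 3′ to 5′ probes of GAPDH, a measure of RNA integrity, spanned 2.38 to 3.29 in N298 and 1.73 to 3.20 in D298. The same ratio for actin was under 1 on every fed liver array, at 0.0768 to 0.386 in N298 and 0.0985 to 0.396 in D298, and it was not used as a measure of integrity. The 16 hepatocyte markers measured were all above the median probe set, with summed signals of 408066 to 564158 in N298 and 441278 to 526165 in D298. The liver of D298 replicate 6 stood apart in interferon-induced genes. Its mean log2 signal over 16 such genes was 10.66, against 9.04 to 9.48 in the N298 livers and 8.98 to 9.25 in the other 5 D298 livers. The precision of all values is limited by the number of arrays.

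No gene passed the test for genotype in fed liver. Of 23999 probe sets, 0 (0%) reached an adjusted p under 0.05 with limma, and the smallest adjusted p was 0.932, which holds for all the genes named here. An unadjusted p under 0.05 was found for 1225 probe sets (5.1%), of which 852 (3.55%) were higher and 373 (1.55%) lower in N298. After median-centring of the arrays the same split was 469 higher and 848 lower, and after quantile normalization 576 higher and 585 lower, so it depended on the scaling. Over all probe sets the median log2 difference was 0.05 as deposited. In 57 probe sets (0.238%) the signals of the N298 and the D298 livers did not overlap. The distribution of p was close to flat, with 1103 to 1309 probe sets in each bin of 0.05. In contrast, the comparison of fasted with fed liver in the same model gave 1073 probe sets (4.47%) past the threshold and 4008 in the lowest bin. It averaged both genotypes and so set 12 livers against 12, whereas genotype in fed liver had 6 against 6. The 2 counts thus come from tests of unequal precision. Genotype also gave 0 probe sets in fasted liver and 0 in fed fat. An unadjusted p under 0.05 was reached by 1383 probe sets (5.76%) in fasted liver and by 1085 (4.52%) in fed fat. The difference between the fed and the fasted genotype effects passed for 0 probe sets, with 1390 (5.79%) at an unadjusted p under 0.05.

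**Figure D1:**
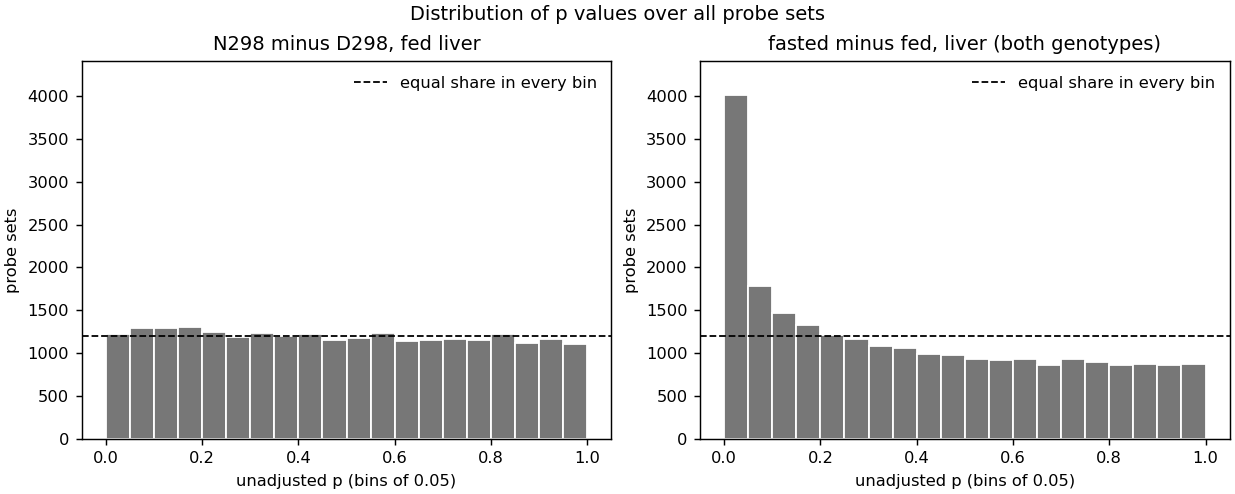
Number of probe sets (vertical axis) in each bin of the unadjusted p (horizontal axis), for N298 minus D298 in fed liver on the left and for fasted minus fed liver on the right, with a dashed line at an equal share per bin. The genotype bins hold 1103 to 1309 probe sets each, whereas the lowest fasting bin holds 4008. The fasting comparison covers both genotypes, with 12 livers on each side against 6 for genotype.

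The receptor's own mRNA was near the floor of the array in liver. MC4R had signals of 2.02, 17.8 and 38.1 (lowest, median and highest) in N298 livers, against 2.19, 14.1 and 27.8 in D298 livers. These are well below the median probe set, at a signal of 130.1, and the groups overlapped over nearly their whole ranges. The fitted log2 difference was 0.22 ± 0.94 (SE), and its 95% interval ran from -1.73 to 2.18, so a difference of up to 4.52-fold lay inside it. The probe set measures the amount of receptor mRNA and does not read the variant base, so it is no check of the genotype labels. Of 7 measured genes of the melanocortin system, 6 were below the median probe set. MC2R, the receptor for corticotropin and the brightest of them, differed by -0.08, with at most 1.29-fold inside its interval. POMC, the precursor of the melanocortin peptides, was dim and had the only unadjusted p under 0.05 of the list, at 0.0347 with an interval from 0.09 to 2.11.

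The 10 genes with the smallest p were CTSC, ESAM, CANX, IVD, WNK1, FBXW4, AKAP9, FAM162B, LAPTM5 and NUDT9. They were chosen by p over all probe sets with 1 symbol, so their fed liver values are a description. For 7 of the 10 the array held a brighter probe set of the same gene, and in all 7 that probe set gave a smaller difference. Each gene was taken by its probe set with the smallest p, which by itself favours smaller differences in the others. The brightest other probe set gave -0.01 against 2.22 in CANX, but -0.59 against -0.74 in NUDT9. Of the 10, 5 (CANX, WNK1, FBXW4, AKAP9 and FAM162B) were below the median probe set. In 4 of the 10 the fitted difference in fasted liver, from other gilts, had the same sign, and in 3 (CTSC, IVD and LAPTM5) its unadjusted p was under 0.05, LAPTM5 with the opposite sign. At an unadjusted p under 0.05, the background in fasted liver was 5.76% of probe sets. The fed and fasted tests share the estimate of the spread of each probe set. Choice by the fed p thus also favours a small fasted p, and the count is a description. In fed fat of the same gilts 5 of the 10 had the same sign.

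CTSC encodes cathepsin C, a lysosomal protease that activates the granule proteases of leukocytes. Its signal was 707, 925 and 1180.5 in N298 livers, against 457, 524 and 793 in D298 livers. All N298 values except the lowest exceeded every D298 value, and that one fell short only of the highest D298 liver. The log2 difference was 0.75 ± 0.15, with an interval from 0.44 to 1.07 and an unadjusted p of 6.41e-05. In fasted liver, CTSC differed by 0.49 ± 0.15 (unadjusted p = 0.00362, adjusted p = 0.852), and in fed fat its fitted difference was near 0. The other 3 CTSC probe sets gave 0.10, 0.21 and 0.49. The brightest of the 4 was the one at 0.10 ± 0.08, with at most 1.21-fold inside its interval.

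IVD encodes isovaleryl-CoA dehydrogenase, a mitochondrial enzyme of leucine breakdown. It was the brightest of the 10, with 3341, 4993 and 5479.7 in N298 livers and 5210.2, 6784 and 7959 in D298 livers. The groups overlapped only where the highest N298 livers met the lowest D298 liver. The log2 difference was -0.50 ± 0.12 (interval -0.74 to -0.25, unadjusted p = 0.00035). The other 3 probe sets of IVD gave -0.40, -0.23 and -0.49, all of the same sign. In fasted liver the fitted difference of IVD was -0.34 ± 0.12 (unadjusted p = 0.00817, adjusted p = 0.852). The gene lies on the chromosome of MC4R in the Sscrofa11.1 annotation, as does FAM162B.

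ESAM, an adhesion molecule of endothelial cells, had signals of 186, 204 and 229.8 in N298 livers and 48.2, 104 and 165 in D298 livers, which did not overlap. The log2 difference had an interval from 0.59 to 1.57. The other ESAM probe sets gave 0.04, at a brighter signal, and 0.18, and in fasted liver the difference was -0.38 ± 0.24. Endothelial markers did not stand apart, with summed signals of 6533 to 8639 in N298 and 6434 to 8471 in D298 livers.

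LAPTM5, a lysosomal membrane protein of leukocytes, had 1568, 1839 and 3082 in N298 livers and 937, 1426 and 1587 in D298 livers. The ranges touched only at the ends. The log2 difference was 0.52 ± 0.14 in fed liver and -0.31 ± 0.14 in fasted liver, and their difference of 0.82 had an unadjusted p of 0.000359 (adjusted p = 0.850). That contrast contains the fed difference by which LAPTM5 was picked, so its p is a description. Of the 10 picked genes, 8 had an unadjusted p under 0.05 for the same contrast, beside 5.79% of all probe sets. Lymphocyte markers had the sign of the fed difference, macrophage markers only in part. All 11 lymphocyte markers measured had a positive fitted difference (median 0.33), with summed signals of 1477 to 2357 in N298 and 1106 to 1813 in D298 livers. Only CD3E, a chain of the T cell receptor complex, had an unadjusted p under 0.05, at a difference of 0.66. Of the 11 markers, 4 were below the median probe set, and all such dim probe sets together had a median difference of 0.12. The 7 brighter markers had a median of 0.30, with 0 negative. After quantile normalization the median of the 11 was 0.26 and after median-centring 0.24, each with 0 negative. The 9 macrophage and Kupffer cell markers had summed signals of 29219 to 44142 in N298 and 25854 to 36418 in D298 livers, with a median difference of 0.14. Of these 9, 6 had a positive and 3 a negative difference. Their mean log2 signal was 10.58 to 10.94 in N298 and 10.43 to 10.97 in D298 livers, a difference of 0.04. In a whole liver sample more cells of a type and more RNA per cell cannot be told apart, and the part of these markers in the values of CTSC and LAPTM5 was not tested.

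NUDT9 encodes a mitochondrial ADP-ribose pyrophosphatase. Its signal was 518, 715 and 955 in N298 livers and 560.1, 1293 and 1507 in D298 livers. All but 1 of the D298 livers were above every N298 liver. The log2 difference was -0.74 ± 0.20. The other, brighter NUDT9 probe set gave -0.59 ± 0.18 (unadjusted p = 0.00303), and in fasted liver the first gave -0.02 ± 0.20.

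The 5 dim genes had the widest intervals of the 10. CANX, or calnexin, a chaperone of the endoplasmic reticulum, had 60.7, 70.9 and 118 in N298 livers and 7.03, 16.5 and 47.0 in D298 livers, without overlap. Its fitted log2 difference was 2.22 ± 0.51, whereas the other 5 CANX probe sets, among them the bright ones, gave -0.08 to 0.43. WNK1, a kinase that controls ion transport, had a fitted difference of 2.46 ± 0.58. AKAP9, a scaffold at the centrosome and Golgi, had 2.84 ± 0.69, and its other probe set had -0.70. FAM162B differed by -2.65 ± 0.68, and its brighter probe set by -0.15. FBXW4, an F-box protein, differed by -1.58 ± 0.38, and its brighter probe set by -0.23. With 32 added to every signal before the logarithm, the differences of CANX, WNK1, AKAP9 and FAM162B shrank to 1.12, 0.95, 0.56 and -0.61.

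**Figure D2:**
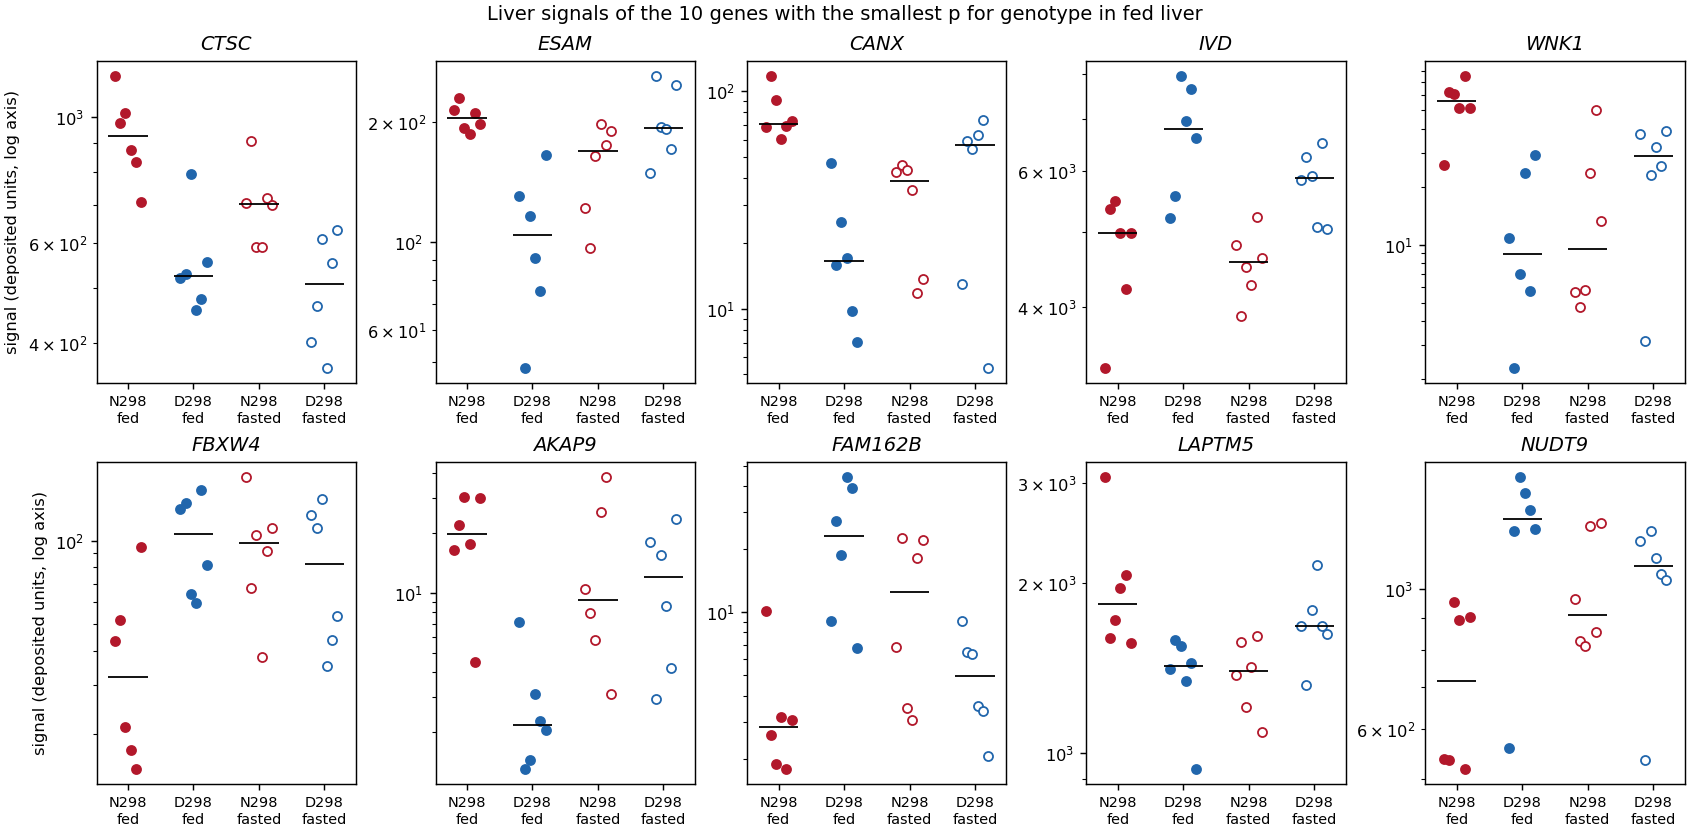
Signal of the 10 genes with the smallest p for genotype in fed liver (vertical axes, log scale), 1 point per liver, with N298 in red left of D298 in blue, fed livers filled and fasted livers open, and the group median as a line. The fed genotype groups separate fully in ESAM and CANX, and the fasted groups of the same genes overlap.

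What the data bound is the size of any genotype difference in metabolic genes. Of 302 symbols on 12 metabolic lists, 205 were measured by a probe set with 1 symbol. None was called, and 15 had an unadjusted p under 0.05, 4 higher and 11 lower in N298, or 7.32%. The background over all genes was 5.04%, with 3.15% higher and 1.89% lower. With median-centred arrays this count was 32 of 205, so it moved with the scaling. In 0 of the 205 genes did the N298 and D298 livers separate, against 0.192% of all genes. The fitted difference was positive in 85 and negative in 120, with a median of -0.05. The median spread between gilts was 0.24 on the log2 scale (residual SD).

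The 95% interval of the log2 difference lay wholly inside 2-fold in either direction for 182 of the 205 genes (88.8%). For 148 genes (72.2%) it lay inside 1.5-fold and for 51 (24.9%) inside an increase of 25% or the matching decrease. A difference of 4-fold was outside the interval of 200 genes (97.6%). The largest difference still inside the interval, called the bound here, was 1.36-fold for the median metabolic gene, against 1.41-fold for the median of 6765 genes and 1.70-fold for the median probe set. With intervals widened so that all 205 hold together at 95% (Bonferroni), 142 genes (69.3%) stayed inside 2-fold, 52 (25.4%) inside 1.5-fold and 0 inside 25%. With intervals not widened, a difference of 25% was thus inside the interval of 154 of the 205 metabolic genes. One of 2-fold was inside the interval of 23 of the 205, and of 10 of the 191 brighter ones.

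The bound was narrower at higher signal. Among all genes in 4 equal classes of brightness, the median bound was 2.67-fold in the dimmest class and 1.45, 1.32 and 1.26-fold in the brighter ones. Only 25.2% of the dimmest class had an interval inside 2-fold, against 95.2%, 97.3% and 98.2% of the others. Of the metabolic genes 191 were above the median probe set, and 181 of these were inside 2-fold, whereas only 1 of the 14 dim ones was. Fitted differences of the 191 brighter genes ran from -0.84 (FADS1) to 1.05 (SDS), and 186 of them were within 0.5 of 0. The 182 genes inside 2-fold include FBP2 at a bound of 1.99-fold, and the first gene beyond is LPIN1 at 2.10-fold. The 23 genes beyond were LPIN1, IGFALS, MGLL, ELOVL6, BCAT2, APOA4, FADS2, CPT2, SLC2A5, DIO1, CYP8B1, LEPR, INSR, ACACA, LIPE, CYP7A1, PNPLA3, FADS1, IRS1, LPL, SDS, FABP4 and PPARA, in rising order of the bound. Of these 23, 13 were below the median probe set and 10 above it. Counting every probe set of the metabolic genes, 242 of 303 were inside 2-fold and 0 were called.

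**Figure D3:**
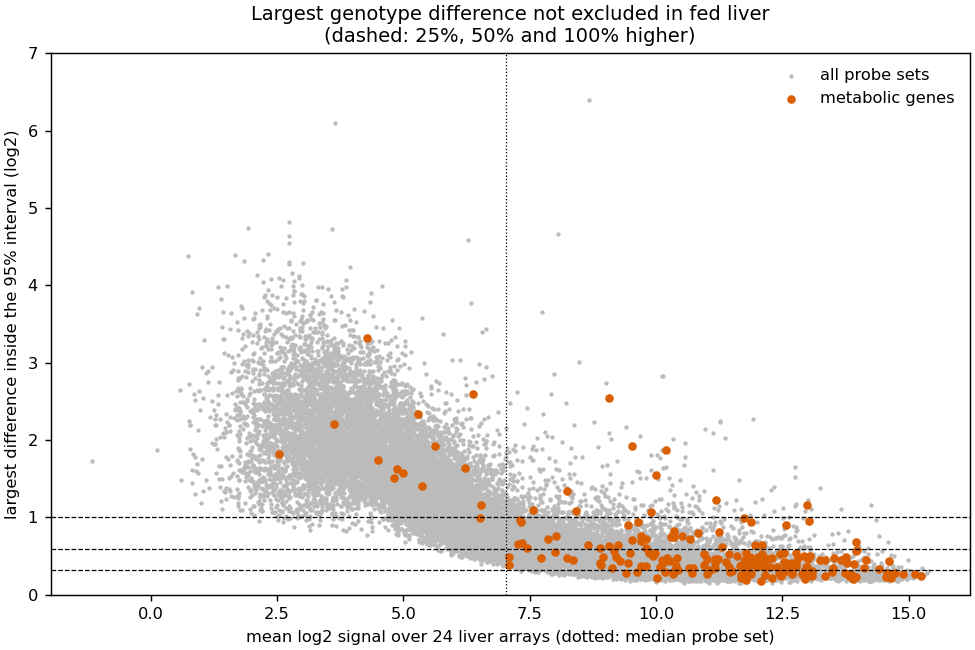
Largest log2 difference inside the 95% interval of N298 minus D298 in fed liver (vertical axis) against mean log2 signal over the liver arrays (horizontal axis), for all probe sets in grey and metabolic genes in orange. Dashed lines mark 25%, 50% and 100% higher, and bounds narrow with signal, and 181 of the 191 metabolic genes right of the dotted median lie below the highest of them.

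Fatty acid synthesis had the largest median bound of the 12 metabolic lists, at 1.87-fold. Its 13 measured genes had a median difference of 0.08 and a mean over members of -0.02, and 9 were inside 2-fold. FASN, which builds palmitate, had signals of 3537, 6866 and 9136 in N298 livers, against 2736, 5204 and 7148 in D298 livers. The ranges overlapped widely, the difference was 0.27 ± 0.25, and the bound was 1.74-fold. The other 3 FASN probe sets gave 0.19 to 0.23. SCD, the stearoyl-CoA desaturase, differed by 0.14 ± 0.37 (bound 1.87-fold). SREBF1, the transcription factor of lipogenesis, had 117, 141 and 289.6 in N298 and 83.3, 104 and 180.3 in D298 livers, a difference of 0.46 ± 0.25 (interval -0.06 to 0.97). SCAP, which carries SREBF proteins out of the endoplasmic reticulum, had the smallest p of the list (0.27 ± 0.10, unadjusted p = 0.0128). Its interval, 0.06 to 0.48, still left out differences over 1.40-fold. ACACA, the acetyl-CoA carboxylase of this pathway, was dim on this array and had a bound of 3.35-fold. FADS1, the delta-5 desaturase, had the most negative fitted difference of all metabolic genes (-0.84 ± 0.52), with 363, 846 and 2812 in N298 and 1323, 1659 and 2998 in D298 livers. Its interval, -1.92 to 0.24, included 0 and a 3.79-fold difference.

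All 14 genes of cholesterol synthesis and uptake were inside 2-fold, with a median bound of 1.42-fold. None had an unadjusted p under 0.05. Of the 14, 12 had a negative difference (12 after quantile normalization, 14 after median-centring), and the median was -0.10. NSDHL, a sterol dehydrogenase, had the smallest p, with 1086, 1649.6 and 1778 in N298 and 1112, 2227 and 2412 in D298 livers (-0.40 ± 0.21). SQLE, squalene epoxidase, differed by -0.20 ± 0.26 (bound 1.68-fold). SC5D, a late enzyme of the pathway, differed by -0.08 ± 0.13, with a bound of 1.28-fold. HSD17B7, a reductase of the pathway, had the widest interval of the list at 1.92-fold.

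Fatty acid oxidation and ketogenesis were bounded tightly. Of 25 genes, 23 were inside 2-fold, the median bound was 1.32-fold, and 19 had a negative difference (median -0.11). HADH, which oxidises hydroxyacyl-CoA, differed by -0.07 ± 0.08 and had a bound of 1.18-fold. CPT1A, the carnitine transferase that admits long-chain fatty acids to mitochondria, had 1939.7, 2941 and 3571 in N298 and 1931, 2725 and 4386 in D298 livers. Its difference was 0.06 ± 0.23, with a bound of 1.46-fold. ACADVL, a dehydrogenase of very long fatty acids, differed by -0.17 ± 0.14 (bound 1.37-fold). Its other, dimmer probe set gave -0.35 ± 0.33, with a bound of 2.04-fold. Of the 25 genes, 5 had an unadjusted p under 0.05, 1 higher and 4 lower, beside 5.04% of all genes. The 4 lower ones, named here after their values were seen, were ACAA2, ACADM, ETFDH and ACADS, at -0.38, -0.33, -0.24 and -0.21. In fasted liver the same genes had fitted differences of the other sign, at 0.11, 0.21, 0.15 and 0.02. The largest fed difference inside their intervals was 1.61-fold, for ACAA2. PPARA, the transcription factor that induces this pathway, had the largest fitted difference of all metabolic genes at 1.89 ± 0.69 (unadjusted p = 0.0117). Its signal was dim, at 13.8, 42.5 and 84.0 in N298 and 1.51, 12.5 and 57.9 in D298 livers, which overlapped. The interval ran from 0.47 to 3.32, a bound of 9.99-fold, and the other PPARA probe set gave 0.71 ± 0.64.

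Triglyceride synthesis and secretion held 16 measured genes, 14 of them inside 2-fold, and none had an unadjusted p under 0.05. The median difference was 0.04 and the mean -0.01. APOB, the structural protein of secreted lipoproteins, had 26121, 27609 and 34491 in N298 and 24636, 26834 and 28685 in D298 livers, a difference of 0.09 ± 0.09 and a bound of 1.22-fold. DGAT1, which completes triglyceride synthesis, differed by -0.20 ± 0.10 (bound 1.33-fold). APOA4, an apolipoprotein of lipid transport, had 158, 750.3 and 6554 in N298 livers, against 740.0, 809 and 1131 in D298 livers. The N298 livers lay on both sides of the D298 range, and the bound of APOA4 was 2.34-fold at a difference of 0.09 ± 0.55.

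Lipid droplet and lipolysis genes had 8 of 13 members inside 2-fold. Their mean log2 signal was 8.60 to 8.80 in N298 and 8.19 to 8.59 in D298 livers, the only 1 of 27 lists in which the groups did not overlap. It overlapped after quantile normalization, after median-centring, with 32 added before the logarithm, and over its 9 brighter members (9.88 to 10.18 in N298 and 9.85 to 10.15 in D298). The median difference of the 13 genes was 0.11 as deposited, 0.11 after quantile normalization, 0.11 with 32 added and 0.03 after median-centring. Over the 9 brighter members it was 0.08 as deposited. MGLL, the monoglyceride lipase, had the smallest p of all metabolic genes, with 176, 220.0 and 258 in N298 and 103, 132 and 193 in D298 livers. All but 1 of the N298 livers were above every D298 liver. The difference was 0.69 ± 0.19 (interval 0.29 to 1.10, unadjusted p = 0.00179), its other, dim probe set gave 0.93 ± 0.44, and in fasted liver it was 0.33 ± 0.19. FABP4, the fatty acid binding protein of adipocytes and macrophages, was named after its values were seen: it differed by 1.55 ± 0.50, with a bound of 6.05-fold at a dim signal. LPL and LIPE, lipases known mainly from fat tissue, had fitted differences of 1.15 and 0.82 at dim signals. Of the 10 adipocyte markers, which include these 3 genes, 8 were below the median probe set. Their summed signals were 1959 to 3074 in N298 and 1860.1 to 2519 in D298 livers, and their median difference was 0.50. The adipocyte hormones LEP and ADIPOQ differed by -0.19 and 0.67, both dim, and the part of adipocyte RNA in the values of the list was not tested. Among liver genes of the list, LIPC (hepatic lipase) differed by -0.45 and PLIN2, a droplet coat protein, by -0.11 ± 0.25 (bound 1.56-fold). CIDEB, another droplet protein of hepatocytes, had the narrowest interval of the list at 1.29-fold. FABP1, the abundant fatty acid binding protein of hepatocytes, differed by 0.16 ± 0.14, with a bound of 1.36-fold.

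**Figure D4:**
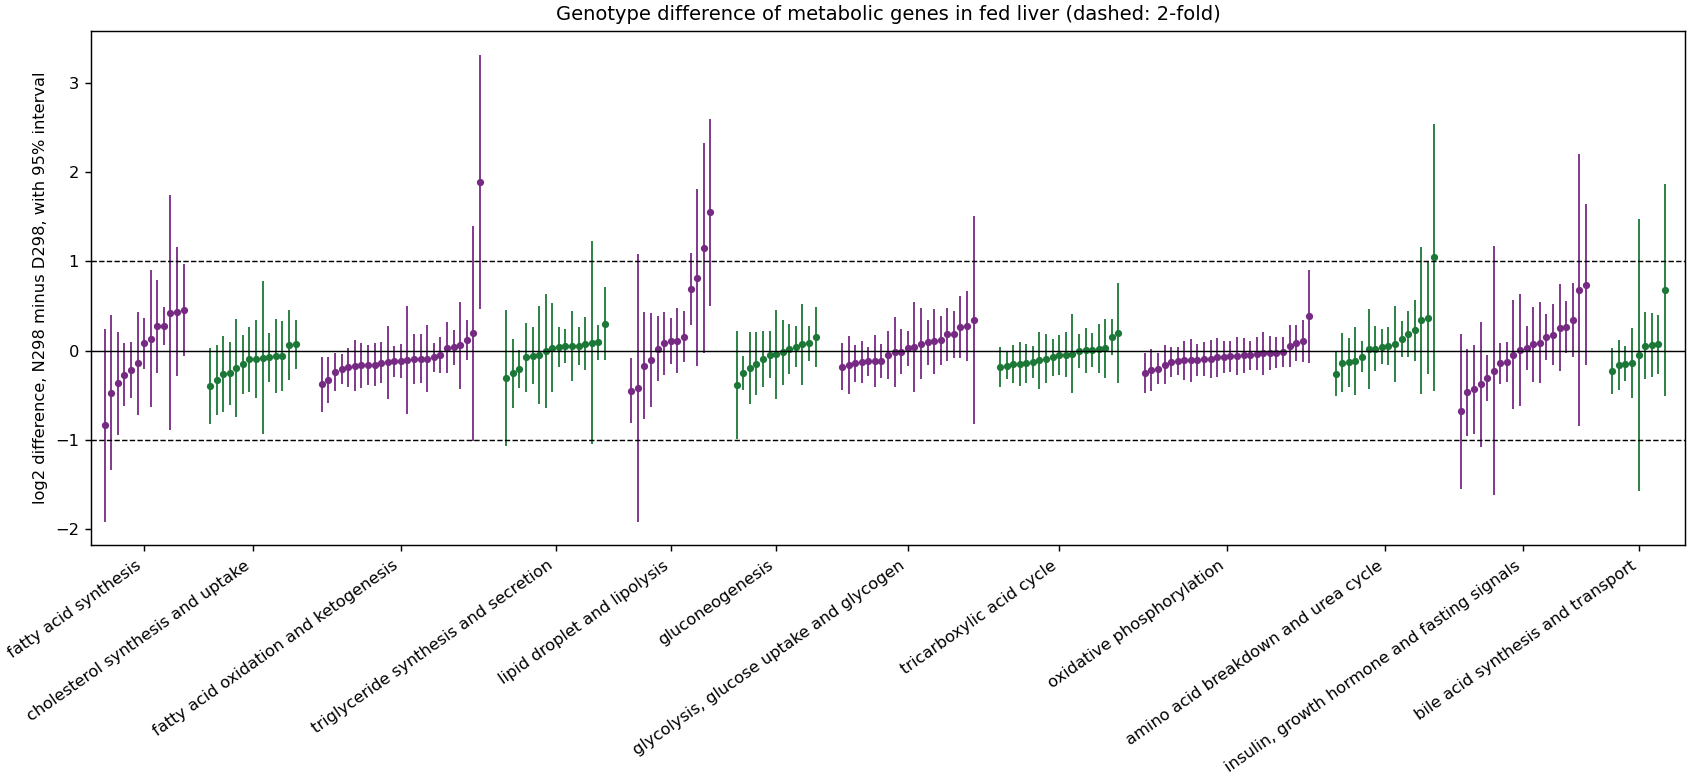
Log2 difference of N298 minus D298 in fed liver with its 95% interval (vertical axis) for each measured gene of 12 metabolic lists (horizontal axis, genes sorted within a list, neighbouring lists in alternating colours, genes on more than 1 list drawn in each). The intervals of 182 of 205 genes lie between the dashed 2-fold lines, and the interval that reaches farthest, that of PPARA, runs from 0.47 to 3.32.

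All 13 gluconeogenesis genes measured, of 18 listed, were inside 2-fold by their brightest probe sets, with a median bound of 1.36-fold. PC, pyruvate carboxylase, had 2607, 2798 and 3825 in N298 and 1956, 3270.0 and 4012 in D298 livers, a difference of -0.04 ± 0.13 and a bound of 1.24-fold. PCK1, the cytosolic carboxykinase, had 9703, 13717 and 19214 in N298 and 10736, 15206 and 17804 in D298 livers, a difference of -0.10 ± 0.15 and a bound of 1.33-fold. FBP1, fructose bisphosphatase, differed by 0.08 ± 0.10 (bound 1.21-fold). PCK2, the mitochondrial carboxykinase, differed by -0.15 ± 0.17 (bound 1.41-fold). Another, dimmer PCK2 probe set gave -0.64 ± 0.26 (interval -1.17 to -0.10, unadjusted p = 0.0214). Its bound of 2.26-fold was beyond 2-fold, and a further PCK2 probe set gave -0.33 ± 0.21. GOT2, the mitochondrial aspartate transaminase, had the smallest p, with 7064, 8563 and 10022 in N298 and 7798, 10630.0 and 11260.5 in D298 livers (-0.25 ± 0.09, unadjusted p = 0.0138). Even so, no difference over 1.36-fold was inside its interval.

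Among the 12 metabolic lists, oxidative phosphorylation and the tricarboxylic acid cycle had the smallest median bounds. Of 21 genes of glycolysis, glucose uptake and glycogen, 20 were inside 2-fold, and the exception was the dim fructose transporter SLC2A5. GAPDH, a glycolytic enzyme, had a bound of 1.16-fold, and ENO1, enolase, one of 1.21-fold at a difference of -0.12 ± 0.08. PDK4, the kinase that shuts off pyruvate oxidation, differed by 0.10 ± 0.18 (bound 1.38-fold). All 19 genes of the cycle were inside 2-fold, with a median bound of 1.28-fold. SDHA, a subunit of succinate dehydrogenase, had 5596, 6375 and 6803 in N298 and 6456, 7048 and 7409 in D298 livers. Its difference was -0.17 ± 0.07 (interval -0.32 to -0.02, unadjusted p = 0.0317). SUCLA2, a subunit of succinyl-CoA synthetase, had the widest interval of the cycle, with a bound of 1.69-fold. All 26 genes of oxidative phosphorylation were inside 2-fold, with a median bound of 1.22-fold. Of these 26, 22 had a negative difference as deposited, 17 after quantile normalization and 23 after median-centring, with a median of -0.07. ATP5O, a subunit of ATP synthase, had the smallest p (-0.25 ± 0.11, bound 1.39-fold). CYCS, cytochrome c, had the widest interval of the list (-0.14 to 0.91).

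For amino acid breakdown and the urea cycle, 14 of 16 genes were inside 2-fold. CPS1, which starts the urea cycle, had 19528, 22156 and 24247 in N298 and 16473, 20528 and 24660.5 in D298 livers, a difference of 0.13 ± 0.10 and a bound of 1.26-fold. TAT, tyrosine aminotransferase, differed by -0.12 ± 0.18 (bound 1.41-fold). BCKDHA, a subunit of the branched-chain ketoacid dehydrogenase that acts before IVD in leucine breakdown, had the smallest p (-0.26 ± 0.12, unadjusted p = 0.0421). Its partner BCKDHB differed by 0.05, with a bound of 1.18-fold. SDS, serine dehydratase, varied widely between gilts, with 365, 1372 and 3307 in N298 and 146, 374 and 3451 in D298 livers. Its difference of 1.05 ± 0.72 had a bound of 5.82-fold.

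Of 20 genes of insulin, growth hormone and fasting signals, 15 were inside 2-fold, with a median difference of 0.02, a mean of -0.00 and a median bound of 1.57-fold. IGF1, the growth factor released by the liver under growth hormone, had 334, 742 and 1573 in N298 and 352, 758 and 1019 in D298 livers. Its difference was 0.01 ± 0.30 and its bound 1.56-fold. IGF2, a second growth factor of the liver, differed by -0.13 ± 0.11 (bound 1.28-fold). The other IGF2 probe sets above the median probe set gave -0.29 to 0.07, with bounds up to 1.48-fold. GHR, the growth hormone receptor, differed by 0.26 ± 0.24 (bound 1.68-fold), and STAT5B, which relays its signal, by -0.31 ± 0.13 (unadjusted p = 0.0239). IGFALS, which stabilises circulating growth factor, differed by -0.38 ± 0.34. IGFBP2, an insulin-suppressed binding protein, had 1961, 2526 and 4299.6 in N298 and 2735, 3320.0 and 5311 in D298 livers, a difference of -0.44 ± 0.24. IGFBP1, the binding protein that insulin represses most directly, had 3684, 8328 and 16420.4 in N298 and 6834, 10793 and 14150.3 in D298 livers. The N298 range enclosed the D298 range, and the difference was -0.47 ± 0.23, with a bound of 1.94-fold. In fasted liver, IGFBP1 differed by 0.84 ± 0.23 (unadjusted p = 0.00166, adjusted p = 0.852), and the fed minus the fasted effect was -1.31 ± 0.33 (unadjusted p = 0.000704, adjusted p = 0.850). The receptors for insulin and leptin, INSR and LEPR, were dim, with bounds of 3.12-fold and 3.07-fold. ADIPOR2, a receptor for adiponectin, was bright and differed by 0.18 ± 0.16 (bound 1.44-fold).

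Of 9 genes of bile acid synthesis and transport, 7 were inside 2-fold, with a median difference of -0.05 and a mean of 0.02. CYP7A1, the rate-limiting enzyme of bile acid synthesis, had 738, 2196 and 7987 in N298 and 140.0, 2023 and 2785 in D298 livers. The difference was 0.68 ± 0.57, and with such a spread the bound was 3.66-fold. SLC10A1, which takes up bile acids from blood, had 14212, 14858 and 21723 in N298 and 18109, 19198 and 20047 in D298 livers (-0.23 ± 0.12). NR1H3, a sterol-sensing nuclear receptor, differed by -0.15 ± 0.10 (bound 1.27-fold).

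The bounds can be set beside the response to fasting in the same model, which shares the fed arrays. That response averages both genotypes, with 12 livers on each side against 6 for the genotype difference. Of the 205 metabolic genes, 73 passed the threshold for fasting, 40 higher and 33 lower in fasted liver. Their median fasting response was 0.82 in size, and their median genotype bound was 0.45, both on the log2 scale. The 73 genes were picked for a large fasting response, which favours a response above the bound, so these sizes are a description. FASN had a genotype difference of 0.27 and a fasting response of -3.22. SQLE had -0.20 for genotype and -2.99 for fasting, and SC5D -0.08 and -1.81. PC had -0.04 for genotype and 1.84 for fasting, and ACADVL -0.17 and 1.58. For the brightest probe sets of these 5 genes, even the interval end farthest from 0 was a fraction of the fasting response.

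**Figure D5:**
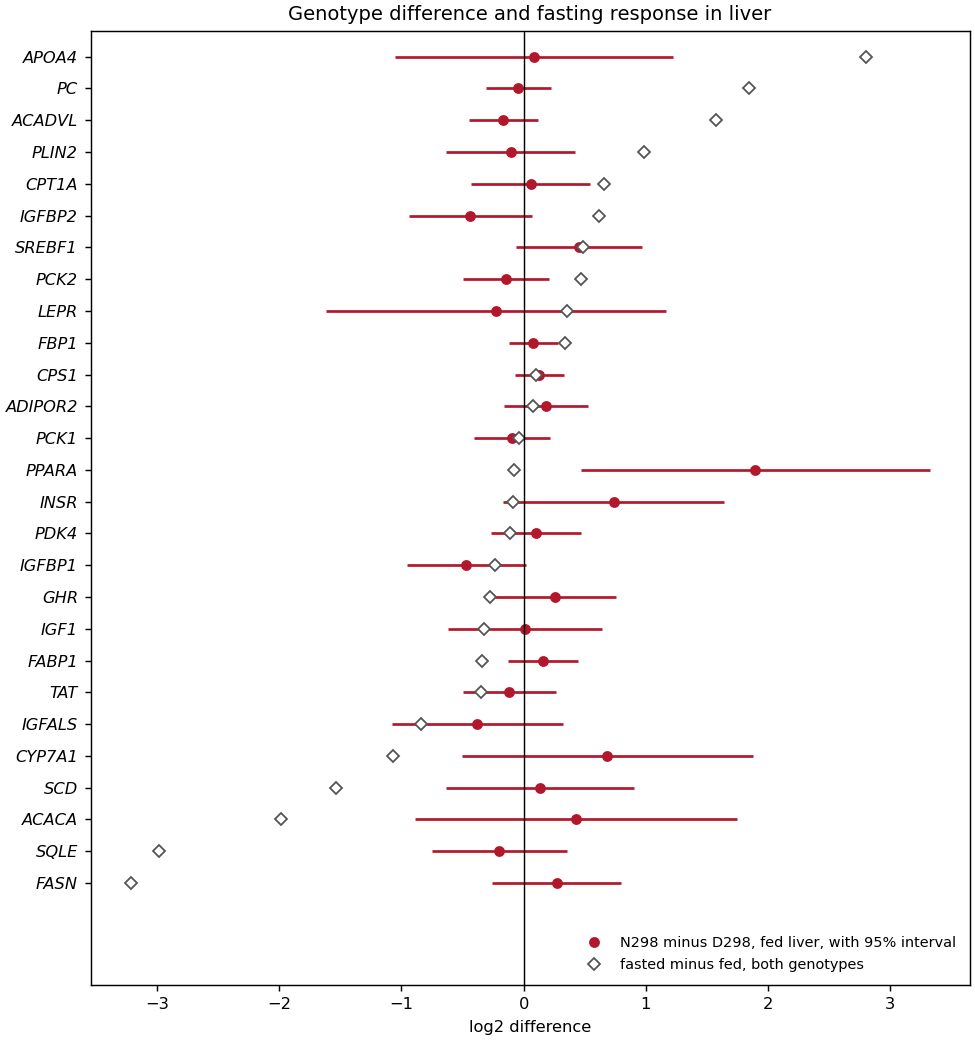
Log2 difference of N298 minus D298 in fed liver with its 95% interval (red) and of fasted minus fed liver over both genotypes (open diamonds) on the horizontal axis, for metabolic genes chosen by name (vertical axis, sorted by fasting response). For FASN, SQLE, PC and ACADVL the diamond lies far outside the genotype interval, whereas PPARA, LEPR, INSR and CYP7A1 have wide intervals.

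Outside metabolism, PER1, a clock gene, differed by 0.21 ± 0.19, with a bound of 1.52-fold. Of 15 acute phase genes, 12 were inside 2-fold, with a median bound of 1.22-fold, a median difference of 0.01 and a mean of -0.03, and 0 had an unadjusted p under 0.05. Of 23 genes of xenobiotic metabolism, 16 were inside 2-fold. CYP2B22, a cytochrome P450 chosen after its values were seen, was the only 1 with an unadjusted p under 0.05, at -1.41. Of 17 genes of antigen presentation, 15 were inside 2-fold. Of 16 interferon-induced genes, only 7 were inside 2-fold, and 12 had a negative difference (median -0.21). MX1, an antiviral GTPase induced by interferon, had a signal of 11573 in D298 replicate 6 and at most 2411 in every other fed liver. Without that liver the median was 0.07, 5 of 16 differences were negative and 12 were inside 2-fold.

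Genes near MC4R could be inherited along with the variant, and a shared segment was not measured here. Of the 40 measured genes nearest to it in the order of the Sscrofa11.1 annotation, 5 (12.5%) had an unadjusted p under 0.05 and 0 were called, against 37 of 553 (6.69%) on its whole chromosome and 296 of 6140 (4.82%) elsewhere. The 5 were ATP8B1, HACD3, ZADH2, TIPIN and TMX3. ATP8B1, a phospholipid flippase of the bile canaliculus, differed by 0.44 in fed and 0.32 in fasted liver, and HACD3, an enzyme of fatty acid elongation, by -0.29 and -0.28. ZADH2 differed by -0.27 and -0.24, TIPIN by 0.50 and 0.28, and TMX3 by 0.26 and 0.14. In fed fat the values were 0.02 (ATP8B1), -0.07 (HACD3), 0.24 (ZADH2, the other sign), 0.70 (TIPIN) and 0.13 (TMX3). The 5 were picked by the fed p, and both liver tests share the estimate of the spread, so these values are a description.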

How the data were processed

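Signal intensities of 48 arrays were deposited by the authors on a linear scale, with affy and MAS5 named in the submitters' processing notes. Their 2% trimmed mean was 500.1 to 500.2 on every array, a scaling found from the values. No genome build or filter is given in the sources used here. From these intensities log2 was taken with nothing added. Of 24123 probe sets 124 controls were left out and 23999 tested. The platform annotation supplied named 10069 probe sets with 1 symbol and 198 with several, and 13732 carried none. Gene IDs matched 9961 of the former to the RefSeq table, which changed no symbol. A gene (6765 in all) is given by the probe set with the highest mean over the 48 arrays.

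Genotype, feeding state and replicate number came from the labels. A linear model was fitted to the 24 liver arrays in R 4.3.3 by limma 3.58.1 (lmFit, then eBayes with an intensity trend). Its terms were the 4 groups and a fixed block for the 6 replicate numbers, because the series is described as a block design. Tests were 2-sided and adjusted by Benjamini and Hochberg over all 23999 probe sets, with calls made at an adjusted p under 0.05. Intervals are 95% intervals of the moderated statistic (20.8 degrees of freedom), and errors after ± are its SE. The fat arrays were fitted in the same way. Figures were drawn in Python 3.11.15 by Matplotlib 3.10.9 from tables read by pandas 2.3.3. The model was tested on simulated data.

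Gene lists and named genes were chosen with earlier results of these data known. Named were the 10 genes with the smallest p over their probe sets, 37 fixed by name of which 29 were measured, the genes of each metabolic list with the smallest p and the narrowest and widest interval, and the extremes over all metabolic genes. Of 302 symbols on the metabolic lists 205 were measured, and the others were not analysed here. Alternatives covered the block, the arrays in the fit, scaling, dim probe sets, an added constant, the variance model, array weights, the probe set per gene and each array left out.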

Additional observations from a re-analysis of the deposited data

Results flagged for a closer look

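In 15 of 138 groups of 6 fed livers tested, the highest or lowest liver stood apart from the other 5 by Dixon's criterion, which chance meets in about 1 in 20 groups. Of the 10 genes with the smallest p, 6 had such a liver. CTSC was 793 in D298 replicate 3, above 457 to 554 in the other D298 livers. LAPTM5 was 937 in D298 replicate 6, below 1343 to 1587. NUDT9 was 560.1 in D298 replicate 1, below 1237 to 1507. WNK1 was 26.0 in N298 replicate 1, below 51.0 to 75.2, and AKAP9 was 4.52 in N298 replicate 5, below 16.5 to 30.5. FAM162B was 10.1 in N298 replicate 1, above 1.78 to 3.17.

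Among metabolic genes, SCD was 3591 in N298 replicate 5, below 9664 to 16885 in the other N298 livers, and PC was 3825 in the same liver, above 2607 to 2933. PCK2 was 4157 in N298 replicate 2, above 2061 to 2632, and APOB was 34491 in the same liver, above 26121 to 28112. PLIN2 was 153 in N298 replicate 6, below 270.3 to 342. CYP7A1 was 140.0 in D298 replicate 1, below 1518 to 2785, and GOT2 was 7798 in the same liver, below 10010.5 to 11260.5. NSDHL was 1112 in D298 replicate 6, below 2071 to 2412. CYP8B1, a dim gene of bile acid synthesis, was 1.41 in D298 replicate 4, below 19.9 to 42.3.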

How the results depend on the processing

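Under all 29 alternatives limma called 0 probe sets and 0 metabolic genes for genotype in fed liver. The smallest adjusted p ranged from 0.232, without D298 replicate 1, to 0.993. Leaving out 1 fed liver array or 1 replicate number kept 175 to 181 metabolic genes inside 2-fold, and the other alternatives 177 to 192, the highest with 32 added before log2. With only brighter probe sets, 180 of 191 metabolic genes were inside 2-fold. Metabolic genes at an unadjusted p under 0.05 numbered 11 to 32. The count was 15 as reported, 32 after median-centring, 23 without replicate 6 and 24 without N298 replicate 4. Brighter probe sets only gave 603 probe sets at an unadjusted p under 0.05, since fewer were tested. With no replicate block 179 metabolic genes were inside 2-fold and 1179 probe sets had an unadjusted p under 0.05, and the block changed no call in fed liver. Same-numbered N298 and D298 fed livers did not deviate together (r from -0.02 to 0.03, 1 of 6 best with its own number). A block need not leave such a correlation, so whether the numbers mark blocks cannot be told from it. In fasted liver 2 probe sets were called with no replicate block or a random one. Of 1986 values of named genes under the alternatives, 1980 moved by less than 1 SD. The fitted sign turned in 75 of them, in 17 genes whose intervals include 0, among them IGF1, CPT1A, APOA4, PC and SCD. The 6 that moved more were CANX (1.12), WNK1 (0.95), AKAP9 (0.56), FAM162B (-0.61) and PPARA (0.57) with 32 added, and PPARA (0.71) with the brightest probe set over liver arrays. Dim signal and 6 gilts per group limit the bounds.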

Other observations

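The liver of D298 replicate 6 that stood apart in interferon-induced genes had a matching fat sample. Over the 16 genes its liver mean was 2.98-fold above the median of the other 5 D298 fed livers. In fed fat, the array of the same group and number had a mean log2 signal of 9.87, above 8.94 to 9.38 in N298 and 8.93 to 9.28 in the other D298 fat arrays. In its liver the antiviral genes ISG15, RSAD2, IFIT1 and IFIT3 had signals of 7045, 5284, 4752 and 3031. OAS1, another antiviral gene of the list, did not stand apart, at 787 in this liver and 334 to 1408 in the other D298 livers.

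Hepatocyte markers had the smallest median bound of the lists outside metabolism. All 16 were inside 2-fold, with differences from -0.12 (TAT) to 0.13 (CPS1), and the median bound was 1.20-fold. ALB, albumin, differed by 0.08 and TTR, transthyretin, by 0.02. Of 9 skeletal muscle markers 8 were below the median probe set, and the median difference was -0.43. TNNC2, a troponin of fast muscle, had a bound of 12.2-fold.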
